A study of Saccharomyces cerevisiae with 6 samples.

Results

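ETS2 is the 3′ external transcribed spacer, the stretch that yeast RNA polymerase I (Pol I) transcribes after the 25S rRNA at the end of the 35S gene. All positions that the deposited table assigns to this spacer were taken, whatever their signal, which gave 211 of the 6858 positions of the table (positions 6648 to 6858, chrXII:460712-460922 on the minus strand of R64). Occupancy was measured by native elongating transcript sequencing (NET-Seq), which sequences the 3′ end of nascent RNA held by immunoprecipitated polymerase, in *Saccharomyces cerevisiae*. The WT parent strain was compared with *rpa190-F1205H*, whose largest Pol I subunit carries histidine in place of a phenylalanine of the trigger loop, with 3 libraries of each. The study asked how this change in a mobile element of the active site alters where Pol I dwells along the gene. The methods give the mutant strain an HA tag at the C terminus of Rpa135, the second largest subunit, and compare it with the matching parent strain. The table holds only the 35S gene, so the *rpa190* allele itself could not be checked in it.

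The nascent transcript of ETS2 is cut by Rnt1, the yeast RNase III, which recognises a stem-loop capped by an AGNN tetraloop and cleaves both sides of the stem. This cut separates the precursor of 25S from the RNA still attached to Pol I. Downstream, Pol I meets the T1 terminator, a T-rich stretch followed by a binding site for the Myb-like proteins Reb1 and Nsi1, of which Nsi1 is known to act in Pol I termination. A NET-Seq read ends either at the active site of an engaged polymerase or, where RNA was cut or trimmed and co-purified, at that other end, and the reads alone cannot tell these apart.

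The file annotates the Rnt1 residues, T1 and the T1-proximal Reb1/Nsi1 site, and these annotations divide ETS2 into 4 segments. Their sequences are given as RNA, 5′ to 3′, because the comparisons turn on single nucleotides within them. Capitals mark the 2 most occupied WT positions in the 25S-proximal segment, the predicted hairpin loop in the Rnt1 segment, T1 with the position before it in the third segment, and the Reb1/Nsi1 site in the last.
25S-proximal (chrXII:460908-460922): uuuuuauuucuuuCU
Rnt1 residues (chrXII:460873-460907): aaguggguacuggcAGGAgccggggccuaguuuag
Up to T1 (chrXII:460831-460872): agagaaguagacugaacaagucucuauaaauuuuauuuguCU
Start of the stretch past T1, to the end of the Reb1/Nsi1 site: uaagaauucuaugauccGGGUAAAAACA
The segments hold 15, 35, 42 and 119 positions. The whole spacer is rich in U (37.4% of positions) and A (30.8%) and poor in C (11.4%).

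Depth was moderate in this short stretch. Values are RPM, the reads at a position after each library was scaled by the authors to the same total over the positions up to T1, and whole reads could be recovered from them. Per library, WT had 7101 to 10341 reads in ETS2 and *rpa190-F1205H* had 13247 to 15528. One read was worth 0.324 to 0.493 RPM in WT and 0.271 to 0.317 RPM in the mutant. Reads past T1 were few, 402 to 484 per WT library and 1467 to 1704 per mutant library. Positions 6648, 6649, 6852 and 6853 were at 0 in all 6 libraries and were not tested, which left 207.

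Over the whole spacer, mean occupancy per position was 13.1, 16.6 and 15.9 RPM in the WT libraries and 21.7, 19.9 and 20.0 RPM in the *rpa190-F1205H* libraries. The mutant libraries were all above the WT libraries, with means of 20.5 ± 1.00 and 15.2 ± 1.87 RPM (SD, n = 3) and a difference of 0.44 on the log2 scale. The exact two-sided permutation test gave p = 0.1, the smallest value that 3 against 3 libraries allow, and this p stands for every non-overlapping comparison between libraries below. The difference depends on the scale. When each library was scaled to its total over the transcribed spacers instead of the whole 35S gene, ETS2 was lower in the mutant by 1.12 on the log2 scale. ETS2 held 0.276, 0.350 and 0.335% of all 35S reads in WT and 0.457, 0.420 and 0.421% in the mutant. The 35S total includes the mature rRNA regions, where the study notes contamination by finished rRNA, and the part of that RNA in the scale was not tested. As a share of the reads in all spacers, ETS2 held 7.22, 7.88 and 8.04% in WT and 3.75, 3.47 and 3.41% in *rpa190-F1205H*. The spacers themselves held 107504, 90161 and 128636 of 2817982, 2028349 and 3087916 35S reads in WT. In the mutant they held 387526, 382272 and 454956 of 3182392, 3155425 and 3687549, a larger part in every library. Values on the spacer total thus compare ETS2 with all spacers, which were higher in the mutant on the 35S scale.

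The small difference in the mean covered opposite differences along the spacer. Occupancy in *rpa190-F1205H* was lower next to 25S, higher across the Rnt1 residues, and, on the 35S scale but not on the spacer scale, higher past T1. The 2 most occupied WT positions alone held 48.2% ± 2.56 of WT reads in ETS2 and 4.16% of mutant reads. Accordingly, 3 positions held 50% of the ETS2 reads in each WT library, against 15, 14 and 14 positions in the mutant libraries. The 10 most occupied positions held 69.1% ± 1.38 in WT and 40.6% ± 1.43 in the mutant. Both differences narrowed without the 2 leading WT positions. Then 50% of the reads lay on 13.0 positions in WT and 13.3 in the mutant on average (exact two-sided permutation p = 1.0), and the 10 leading positions held 44.8 and 42.4%. These 2 positions were picked by their WT values and ranked 14 and 19 in the mutant, whose own leading positions stayed in. The trimmed values thus cannot show that the strains are otherwise equally concentrated.

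**Figure D1:**
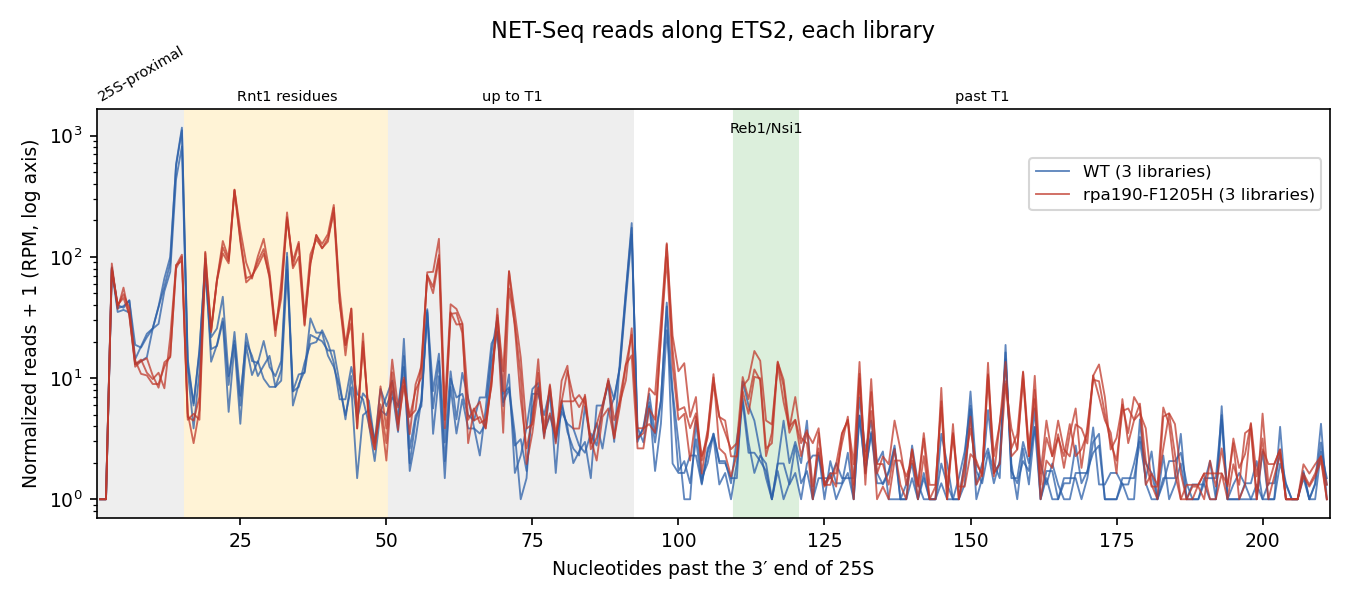
Normalized reads plus 1 (RPM, log axis) at each of the 211 ETS2 positions, counted from the 3′ end of 25S, with one line per library (blue WT, red *rpa190-F1205H*, 3 each). The WT lines peak at the end of the 25S-proximal segment and at T1, and the mutant lines lie above them across most of the Rnt1 residues.

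**Figure D2:**
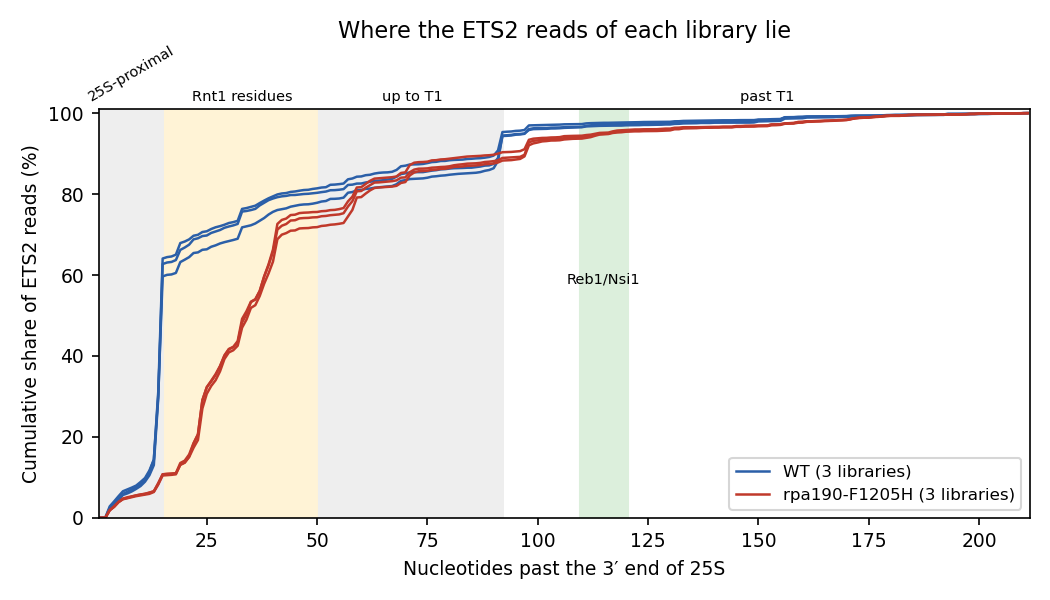
Cumulative share of each library's ETS2 reads (percent) against the distance from the 3′ end of 25S in nucleotides. The WT libraries pass 50% at the end of the 25S-proximal segment and the mutant libraries within the Rnt1 residues.

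The 25S-proximal segment lies between the mature 3′ end of 25S and the first Rnt1 residue. Its mean occupancy was 110, 146 and 143 RPM per position in WT and 31.9, 30.1 and 30.2 RPM in *rpa190-F1205H*. WT was higher in every library, and the mutant mean was lower by 2.10 on the log2 scale (133 ± 20.4 and 30.7 ± 1.00 RPM, SD, n = 3). This segment held 62.1% ± 2.27 of ETS2 reads in WT and 10.7% ± 0.169 in the mutant. Without the 2 leading WT positions, the difference in the mean was -0.66 and the shares were 26.9 and 6.78%, still without overlap.

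The peak of the spacer in WT was position 6662, a U and the last nucleotide before the Rnt1 residues. It stood at 812, 1162 and 1104 RPM in WT and at 103, 98.9 and 91.2 RPM in *rpa190-F1205H*. No mutant library came near the lowest WT library, and the fitted difference was a fall of 3.36 on the log2 scale (SE 0.14; limma adjusted p = 2.1e-07). The C at 6661 fell by 2.65 (SE 0.12), from 525 ± 77.7 to 82.4 ± 3.04 RPM (SD, n = 3). The neighbours 6660 and 6659, both U, fell by 2.36 and 2.39 from lower levels, 86.9 ± 12.3 and 57.4 ± 7.31 RPM in WT.

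The rest of the segment behaved differently. Position 6650, a U in the U tract that follows 25S, stood at 77.7, 78.9 and 81.0 RPM in WT and 87.1, 76.7 and 79.8 RPM in the mutant. These values overlap, with a fitted difference of 0.03 (SE 0.09; limma adjusted p = 0.74). Of the 13 tested positions in this segment, 7 were lower, 1 was higher and 5 did not pass the test (limma, adjusted p below 0.05). Over all tested positions of the 35S gene, 40.6% were higher in the mutant and 33.9% were lower. The 7 lower positions were consecutive, from 6656 to 6662, and the higher one was 6652, a U that stood at 36.9 ± 1.37 RPM in WT and 49.2 ± 5.05 RPM in the mutant (SD, n = 3; -1.13 on the spacer total). The first of the ETS2 positions, 6648 and 6649, had no reads.

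The Rnt1 residues gave the reverse picture. Their mean occupancy was 14.3, 17.6 and 16.6 RPM per position in WT and 80.2, 76.2 and 78.0 RPM in *rpa190-F1205H*. The groups lie far apart, with a 4.83-fold ratio of the means (16.2 ± 1.68 and 78.1 ± 1.98 RPM, SD, n = 3). The difference was 2.28 on the log2 scale and 0.71 on the spacer total, again without overlap. This segment held 17.7% ± 0.440 of ETS2 reads in WT and 63.2% ± 1.75 in the mutant, so that it took the place of the 25S-proximal segment as the most populated one.

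**Figure D3:**
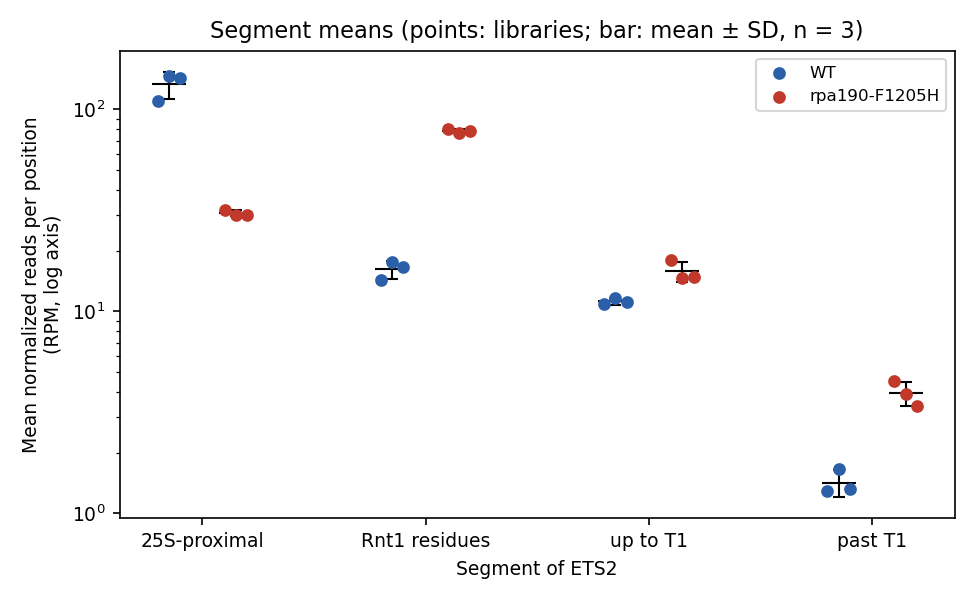
Mean normalized reads per position (RPM, log axis) in the 4 segments of ETS2; points are libraries, and the bar is the mean ± SD of 3 libraries (blue WT, red *rpa190-F1205H*). On this scale WT is higher in the 25S-proximal segment and the mutant in the other segments; on the spacer total the stretch up to T1 was instead lower in the mutant (-1.08) and the stretch past T1 overlapped between strains (-0.09).

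Of the 35 Rnt1 residues, 26 were higher in *rpa190-F1205H* (74.3%), 3 were lower (8.57%) and 6 did not pass the test. Over the gene, 40.6% were higher and 33.9% lower. Among positions with a mean of at least 10 RPM, the largest fitted rise, with the pseudocount of 1, was at 6672, a C, which stood at 3.19, 4.93 and 6.15 RPM in WT and at 166, 139 and 133 RPM in the mutant. Every mutant library exceeded every WT library many times over, with a log2 fold change of 4.70 (SE 0.19; limma adjusted p = 1.6e-07). The A just before it, 6671, was the highest position of the mutant in all of ETS2, at 356, 351 and 358 RPM against 17.7, 19.2 and 23.0 RPM in WT. Its log2 fold change was 4.09 (SE 0.11), and its 3 mutant libraries lay within a few RPM of each other. Position 6688, a C in the 3′ arm of the predicted stem, stood at 253, 230 and 267 RPM in the mutant and 12.4, 11.3 and 15.9 RPM in WT, a log2 fold change of 4.15 (SE 0.13).

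The other named rises in this segment were at 6670, a U (3.56), 6681, a G (3.59), and 6682, a C (3.68), the latter pair directly after the loop. Peaks of WT within the Rnt1 residues lay elsewhere. The highest was 6680, the last A of the predicted loop, at 94.4 ± 15.3 RPM in WT and 216 ± 14.2 RPM in the mutant, a rise of 1.19 (SE 0.13) that turned to -0.36 on the spacer total. The next was the U at 6666, at 73.8, 87.8 and 95.9 RPM in WT and 109, 107 and 87.1 RPM in the mutant. Its groups overlap, and its difference of 0.23 (SE 0.13) did not pass the test (limma adjusted p = 0.14). The G at 6669 ranked after it in WT, with 34.7 ± 9.74 RPM, and rose to 120 ± 14.1 RPM, a log2 fold change of 1.78 that was 0.25 and did not pass the test on the spacer total (limma adjusted p = 0.16).

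The 3 Rnt1 residues that were lower in the mutant lay at the edges of the segment. They were 6663, an A that fell by 1.42 from 11.9 ± 1.35 RPM, 6665, a G that fell by 1.40 from 13.9 ± 3.19 RPM, and 6697, the G that ends the segment, which fell by 1.05 from 4.95 ± 1.05 RPM.

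The fold of the RNA was predicted with RNAfold for the Rnt1 residues and 10 nucleotides on either side, 55 nucleotides in all. The minimum free energy structure was a single hairpin of -28.2 kcal/mol with 23 base pairs, 8 of them G-C. Its 4-nucleotide loop, AGGA at positions 6677 to 6680, has the AGNN form, and its stem pairs 6661 with 6697, 6662 with 6696 and 6663 with 6695. The 2 most occupied WT positions thus lie within the predicted stem, opposite the last of the annotated residues. AGNN is common, with 16 matches on the sense strand of ETS2 and a match in 100% of windows of the same length along the 35S gene, so the match is a description of this loop only.

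Within the annotated residues, the higher signal of the mutant was not limited to one face of the hairpin. The 5′ arm, with 13 positions, had a mean of 19.6 RPM in WT and 69.7 RPM in the mutant. The 3′ arm, with 15 positions, rose from 9.42 to 66.0 RPM, and the 7 unpaired positions from 24.2 to 120 RPM. The median log2 fold change per position was 1.78, 1.73 and 2.19 in these 3 classes, given as a description because neighbouring positions are not independent.

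Between the Rnt1 residues and T1, mean occupancy was 10.9, 11.7 and 11.1 RPM per position in WT and 17.9, 14.6 and 14.8 RPM in *rpa190-F1205H*, without overlap. The difference was 0.49 on the log2 scale and turned to -1.08 on the spacer total. The share of ETS2 reads in this segment was 14.8% ± 1.52 in WT and 15.3% ± 1.01 in the mutant, and these groups overlap (exact two-sided permutation p = 0.6). Without the 2 leading WT positions in the total, the shares were 28.6 and 15.95%, lower in every mutant library. Those positions were picked by their WT values, so leaving them out raises this share mainly in WT. Of the 42 positions of this segment, 19 were higher (45.2%), 6 were lower (14.3%) and 17 did not pass the test. The share of higher positions lay near the 40.6% of the gene, where 33.9% were lower. On the spacer total 7 were higher and 24 lower (16.7% and 57.1%, against 11.6% and 78.6% over the gene).

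Most of the higher positions of this segment formed runs, from 6701 to 6710, from 6718 to 6720 and from 6728 to 6731, and the largest WT signal lay at its very end. Position 6706, an A, stood at 12.8, 9.37 and 14.9 RPM in WT and 140, 102 and 95.5 RPM in the mutant, a log2 fold change of 3.09 (SE 0.19). The G at 6704 was the most occupied WT position of the segment apart from T1 and the position before it. It rose from 34.9 ± 1.14 to 70.8 ± 2.39 RPM, a log2 fold change of 1.00 (SE 0.09) that turned to -0.53 on the spacer total. Further along, the U at 6718 rose from 8.07 ± 1.43 to 68.0 ± 12.2 RPM (2.92, SE 0.16).

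At T1 itself, position 6739, the direction was the opposite. This U, the last position that the authors' scaling covers, stood at 172, 189 and 152 RPM in WT and at 21.7, 24.7 and 14.4 RPM in *rpa190-F1205H*. All 3 WT libraries were several times above the mutant libraries, a fall of 3.04 on the log2 scale (SE 0.19; limma adjusted p = 1.5e-06). The C before it, 6738, fell by 2.07 (SE 0.14), from 48.3 ± 4.60 to 10.8 ± 1.95 RPM. Together these 2 positions held 6.92% ± 1.13 of ETS2 reads in WT and 0.718% in the mutant. Without T1, the mean of the segment was 7.33 ± 0.358 RPM in WT and 15.7 ± 1.87 RPM in the mutant, a difference of 1.10 on the log2 scale.

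Both main WT peaks of ETS2, at 6662 and at T1, are a U preceded by a C, a pattern read off after the peaks were known. Other CU steps of the spacer went both ways. The step at 6657 and 6658 also fell (-1.40 and -1.89), whereas 6672 and 6673 rose by 4.70 and 1.81 and 6689 and 6690 by 2.51 and 1.72. The tract UUUUU occurs once on the sense strand of the spacer, at 6648 to 6652, next to 25S and not at T1, and 36.7% of windows of the same length along the 35S gene also hold it.

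**Figure D4:**
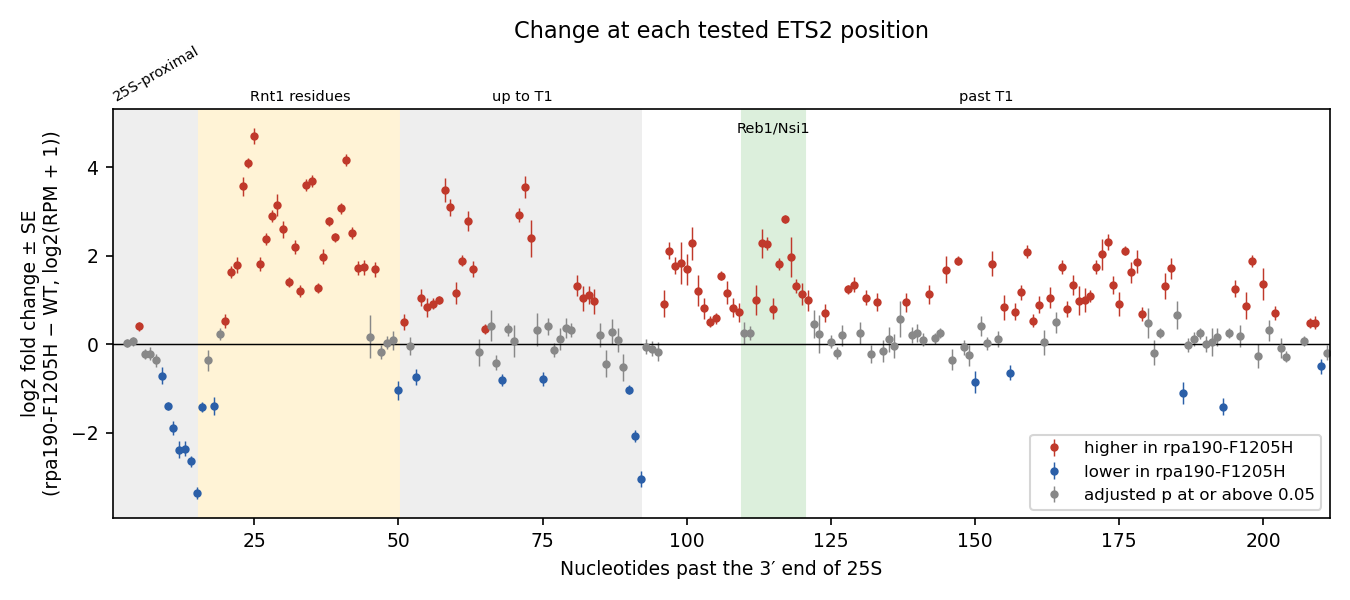
Limma log2 fold change (*rpa190-F1205H* minus WT, on log2(RPM + 1)) with its standard error at each of the 207 tested ETS2 positions, against the distance from the 3′ end of 25S in nucleotides; red is higher in the mutant, blue lower, grey not past the test. Falls gather at the end of the 25S-proximal segment and at T1. On this scale rises fill most of the Rnt1 residues and much of the stretch past T1. On the spacer total, 25 positions past T1 were higher and 22 lower, against 11.6% and 78.6% over the gene.

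Past T1, reads came from RNA that extended beyond the terminator position. Mean occupancy was 1.29, 1.67 and 1.32 RPM per position in WT and 4.50, 3.91 and 3.42 RPM in *rpa190-F1205H*, a 2.77-fold ratio of the means (1.42 ± 0.211 and 3.94 ± 0.542 RPM, SD, n = 3). This stretch held 5.30% ± 0.537 of ETS2 reads in WT and 10.8% ± 1.05 in the mutant. Without the 2 leading WT positions in the total, the shares were 10.2 and 11.3% and overlapped (exact two-sided permutation p = 0.3). Those positions were picked by their WT values, so leaving them out raises this share mainly in WT. Of the 117 tested positions of this stretch, 65 were higher (55.6%), 5 were lower (4.27%) and 47 did not pass the test. Over the gene, 40.6% were higher and 33.9% lower. On the spacer total the difference in the mean was -0.09 with overlapping groups (exact two-sided permutation p = 0.6). On that scale 25 positions were higher and 22 lower (21.4% and 18.8%, against 11.6% and 78.6% over the gene).

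The signal past T1 fell off with distance in both strains. Between T1 and the Reb1/Nsi1 site it was 3.90 ± 0.705 RPM in WT and 12.4 ± 2.25 RPM in the mutant, 1.66 apart on the log2 scale. Within the 11 positions of the site it was 1.70 ± 0.624 and 6.27 ± 0.815 RPM, a 3.69-fold ratio. After the site it was 0.926 ± 0.087 and 2.09 ± 0.199 RPM, 1.17 apart.

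A single position led this stretch in both strains. The A at 6745 stood at 23.8, 40.9 and 37.9 RPM in WT and 125, 128 and 97.9 RPM in the mutant, a log2 fold change of 1.77 (SE 0.20). On the spacer total this was 0.24 and did not pass the test (limma adjusted p = 0.22). It held 20.1% ± 4.34 of the reads past T1 in WT and 25.03% ± 2.26 in the mutant. Without it, the stretch still averaged 1.15 ± 0.169 RPM in WT and 2.98 ± 0.444 RPM in the mutant (1.38 on the log2 scale, no overlap). Its neighbours 6744, an A, and 6746, a U, rose by 2.11 and 1.83 from 4.71 ± 1.31 and 4.64 ± 3.20 RPM, the latter with 0.52 and no call on the spacer total (limma adjusted p = 0.35).

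Over the Reb1/Nsi1 site itself, 9 of the 11 positions were higher in *rpa190-F1205H* and 2 did not pass the test, against 40.6% higher over the gene. On the spacer total, 5 were higher, 1 was lower and 5 did not pass, against 11.6% higher and 78.6% lower over the gene. The site held only 42, 54 and 45 reads in the WT libraries. The A at 6764 rose from 0.71, 0.99 and 0.97 RPM to 11.9, 12.7 and 12.5 RPM (2.83, SE 0.10). The U at 6760 and the A at 6761 rose by 2.28 and 2.27. At 6763 no read fell in any WT library, so its level was at least 6.47-fold higher in the mutant, counted against a floor of 3 reads over the 3 libraries. The most occupied WT position of the site, the G at 6758, stood at 6.51 ± 1.64 and 7.84 ± 1.23 RPM and did not pass the test (limma adjusted p = 0.20), although it did at 0.42 without WT replicate 2 (0.024). A Reb1-type match, UUACCCG, was found on the antisense strand only, at 6756 to 6762, and 7.63% of windows of the same length along the 35S gene hold such an antisense match.

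Beyond the site, a few positions went against the rest. The most occupied of them in WT, the A at 6803, stood at 15.3, 17.8 and 13.3 RPM in WT and 12.6, 7.93 and 8.41 RPM in the mutant, a fall of 0.64 (SE 0.17; limma adjusted p = 0.0086). The G at 6840 fell by 1.41 (SE 0.19), from 4.12 ± 0.67 to 0.96 ± 0.58 RPM. The A at 6794 was at 0 in all WT libraries and at least 6.94-fold higher in the mutant against the same floor. The other higher positions with no WT read, 6785 and 6855, had only 10 and 4 reads over the 3 mutant libraries, and 6855 did not pass with edgeR or DESeq2. The last 3 positions of ETS2 had hardly any reads. There 6856 and 6857 passed the limma test at 0.48 and -0.51, but neither did with edgeR (adjusted p = 0.23 and 0.10) or DESeq2 (0.38 and 0.24), and 6858 did not pass (-0.20). The call at 6857 was lost without any one of the mutant libraries, and that at 6856 without *rpa190-F1205H* replicate 1 and on both other scales.

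The drop in occupancy at T1 was compared within each library as the log2 ratio of the mean past T1 to the mean between the Rnt1 residues and T1, leaving out T1. This ratio was -2.37 ± 0.204 for WT and -1.99 ± 0.118 for the mutant (SD, n = 3). The drop was smaller in every mutant library, by 0.38 on the log2 scale (1.29 with medians), but with 10 positions on either side of T1 left out the difference was -0.12 with overlapping groups (exact two-sided permutation p = 0.6). Relative occupancy on the far side of T1 was thus not shown to differ between the strains beyond the positions near T1.

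Counted over the spacer, 111 of 207 tested positions (53.6%) were higher in *rpa190-F1205H* and 21 (10.1%) were lower, and 75 did not pass the test (limma, adjusted over the 6843 tested positions of the 35S gene). Read against the 40.6% and 33.9% of the whole gene, ETS2 held a somewhat larger share of higher positions and a smaller share of lower ones. The median log2 fold change was 0.58 in ETS2 and 0.05 over the gene. No overlap between strains was seen at 103 positions with the mutant above and 21 with the mutant below, against 41.8% and 36.2% over the gene. This split moved with the scale, to 103 higher and 39 lower when libraries were scaled to their ETS2 total (27.5% and 50.3% over the gene, with a shift of -0.38 in the gene's median) and to 48 higher and 69 lower on the spacer total (11.6% and 78.6% over the gene, with a median of -1.48). On the spacer total, 16 Rnt1 residues remained higher and 10 were lower, and 13 of 13 positions of the 25S-proximal segment were lower.

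The comparison with the internal spacers was made within libraries, so that no scaling enters. The log2 ratio of mean occupancy in ETS2 to that in ITS1, the spacer between 18S and 5.8S, was -0.14 ± 0.051 in WT and -1.41 ± 0.042 in the mutant. Against ITS2, the spacer between 5.8S and 25S, it was -1.17 ± 0.078 and -1.89 ± 0.077. ETS2 was lower relative to both in every mutant library, by 1.27 and 0.72 on the log2 scale (SD, n = 3). The size of both differences depended on the setting. Without the 2 most occupied WT positions of ETS2, and with all positions of the internal spacers kept, they were -0.38 and 0.17, the latter in the opposite direction. Because those positions were picked by their WT values, leaving them out lowers the ETS2 mean mainly in WT. With the median over positions in place of the mean, the differences were -0.57 and -0.85, both without overlap.

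The nucleotide on which reads ended differed as well. In WT, 56.0% ± 0.760 of ETS2 reads ended on U, and in *rpa190-F1205H* 22.0% ± 1.02 did. Ends on A made up 13.5% ± 0.362 and 29.9% ± 0.365, and ends on G 9.61% ± 0.798 and 27.3% ± 1.25. Ends on C made up 21.0% ± 0.147 and 20.8% ± 0.753, with overlapping groups (exact two-sided permutation p = 0.7). Without the 2 leading WT positions, a C and a U, ends on C were 8.88 and 19.7%, ends on A 26.02 and 31.2%, ends on G 18.5 and 28.5%, and ends on U 46.6 and 20.6%, none of which overlapped. The read-weighted share of A and G among the last 10 incorporated nucleotides was 26.5% ± 0.722 in WT and 60.0% ± 0.238 in the mutant. The exact test gave p = 0.1 for A, G, U and the purine share, and 0.125 after Benjamini-Hochberg adjustment over these 5 values. For scale, the last-10 purine share would be 51.2% if every position of ETS2 held the same number of reads, and 56.0% if every Rnt1 residue did.

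**Figure D5:**
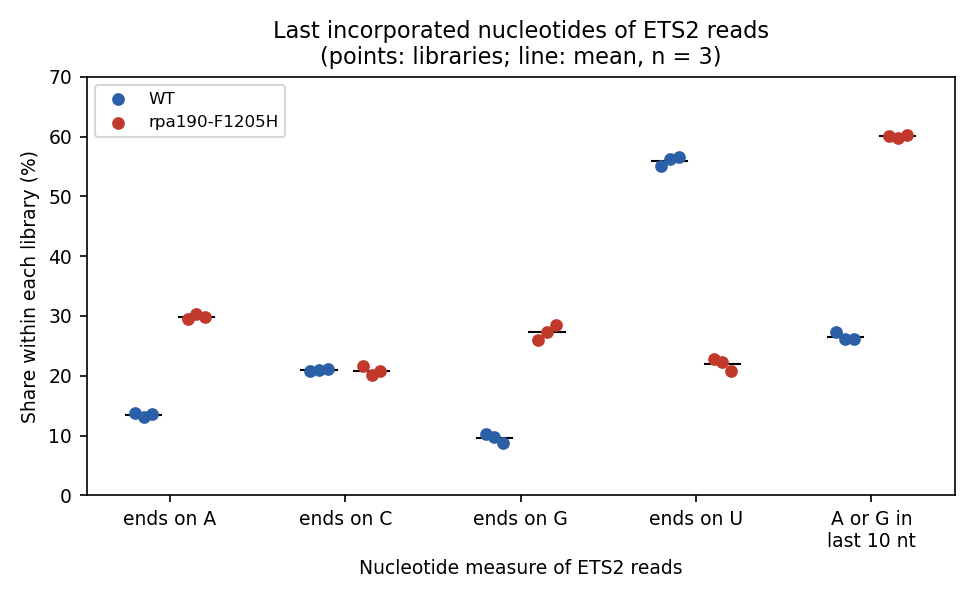
Share of ETS2 reads that end on each nucleotide, and read-weighted share of A and G among the last 10 incorporated nucleotides (percent); points are libraries and the line is the mean of 3 (blue WT, red *rpa190-F1205H*). Ends on U are more frequent in WT, ends on A and G and the purine share are higher in the mutant, and ends on C overlap.

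Read ends and segment shares count the same reads, so these shares are not independent of those above. Within the Rnt1 residues, ends on A were 27.5% ± 1.49 in WT and 25.1% ± 0.882 in the mutant, without overlap. Ends on G overlapped there (39.7 and 37.9%), ends on C were 10.2 and 25.9%, and ends on U 22.6 and 11.2%. Ends on A and G were thus not higher in the mutant within the Rnt1 residues. Up to T1, ends on A were 25.6 and 39.3% and ends on G 11.7 and 14.2%. In the 25S-proximal segment, which has no G, ends on A were 1.99 and 7.30%. Past T1, 67.4% ± 1.82 of WT reads and 66.9% ± 1.91 of mutant reads ended on A, which makes up 35.3% of the positions, and these groups overlap. The other letters there did not overlap, with ends on C at 2.69% ± 0.540 and 5.55% ± 0.665, on G at 15.9% ± 0.932 and 10.7% ± 1.01, and on U at 14.0% ± 1.495 and 16.9% ± 1.27 in WT and mutant. Called by base over the spacer, 38 of 65 tested A positions were higher and 7 lower, 16 of 24 C positions were higher and 3 lower, 25 of 43 G positions were higher and 3 lower, and 32 of 75 U positions were higher and 8 lower. Over the gene, 40.6% of tested positions were higher and 33.9% lower, so the share of higher U positions (42.7%) lay near that of the gene. The counts by base moved with the scale, and on the spacer total 11.6% of the gene was higher and 78.6% lower. On the spacer total, 13 A positions were higher and 25 lower, 13 C positions higher and 4 lower, 11 G positions higher and 14 lower, and 11 U positions higher and 26 lower.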

How the data were processed

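NET-Seq reads of 3 WT and 3 *rpa190-F1205H* libraries were processed by the authors with bcl2fastq 2.20.00, cutadapt 1.12, STAR 2.7.1a, SAMtools 1.6 and bedtools 2.26.0 against R64, as their notes name these tools, and the 3′ ends were counted per position of the 35S gene after removal of duplicates by the unique molecular identifier in the linker. The methods of the paper name later versions of cutadapt and bedtools. The deposited values are RPM per position and sum to 1000000 over positions 1 to 6739 in each library. RefSeq annotates more than one copy of the spacer, and how reads were divided between copies is not given in the sources used here. The deposited table also holds the authors' ratios and p-values, which were not used.

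RPM were tested with limma 3.58.1 (R 4.3.3) on log2(RPM + 1), a scale that understates changes at low positions, with Benjamini-Hochberg adjustment over 6843 positions and a threshold of 0.05. Values per library were compared by exact two-sided permutation tests (scipy 1.17.1). Of 41148 values, 99.98% were whole reads within 0.02 reads; the 8 others lay outside ETS2. The recovered reads were tested with edgeR 4.0.16 and DESeq2 1.42.0 as alternatives. On simulated reads for the WT against mutant comparison over 6832 positions, limma recovered 94 of 100 2-fold and 99 of 100 4-fold changes. It also called 14 other positions. The changed positions were drawn only from better-covered ones, and far fewer were changed than were called in the real data. The variation between simulated replicates was a fixed setting. These figures thus do not give the recovery or the false calls of the real comparison. Recovery in the stretch past T1 alone, where reads were few, was not tested. Per the labels, the libraries of a strain came from separate cultures. Within a strain, ETS2 reads varied by 1.41 to 2.34 times the counting variance.

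The spacer, its segments and the tests were chosen with earlier results of these data known. Positions were named if the file annotates them, if they led a segment in a strain, if they were among the 6 largest rises or falls with a mean of at least 10 RPM and no overlap, or if they were among the first or last 3. The other leading positions (3 per segment and strain, among them 6669, 6704, 6718, 6744, 6746, 6758 and 6803), and 6652, 6794 and 6840, were added with their values already in view.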

Additional observations from a re-analysis of the deposited data

How the results depend on the processing

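Values below are differences, *rpa190-F1205H* minus WT, on the log2 scale for means and in percentage points for shares. With the median in place of the mean per position, the difference was 1.01 for ETS2, -1.45 for the 25S-proximal segment, 2.62 for the Rnt1 residues, 1.29 for the step at T1, and -0.57 and -0.85 for ETS2 against ITS1 and ITS2. Without the 2 most occupied WT positions it was 1.33 for ETS2, -0.66 for the 25S-proximal segment, -0.38 and 0.17 against ITS1 and ITS2, and, for shares of ETS2 reads, -20.1 (25S-proximal), 31.7 (Rnt1), -12.7 (up to T1) and 1.05 (past T1). In the same setting the number of positions holding 50% of reads differed by 0.333 and the share of the 10 leading positions by -2.46. With libraries scaled to the spacer total, the means differed by -1.12 (ETS2), -3.66 (25S-proximal), 0.71 (Rnt1), -1.08 (up to T1) and -0.091 (past T1). With 10 positions on each side of T1 left out, the step at T1 differed by -0.12. Scaling to the spacer total multiplies all values of a library by a single factor set by its spacer reads, so it moved all these means alike. The cause of the other shifts was not tested.

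Read ends differed by 5.16 (A), 10.8 (C), 9.94 (G) and -25.9 (U) without the 2 leading WT positions, and the purine share by 20.3. Over positions up to T1 only, they differed by 14.95, 0.680, 20.1 and -35.7, and the purine share by 35.4. A minimum mean of 10 RPM left 39 positions higher and 13 lower, and the spacer total gave 48 and 69 and the ETS2 total 103 and 39. edgeR called 98 higher and 21 lower. Of the limma calls, 98 and 20 were shared with edgeR and 85 and 20 with DESeq2.

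Same-numbered libraries of the strains correlated by 0.127, 0.027 and 0.201, and differently numbered ones by -0.158 to 0.030. These values do not settle whether the numbers mark pairs, and the main tests did not pair the samples. With the replicate block, 113 positions were higher and 22 lower. Leaving out each library in turn gave 105 to 112 higher and 20 to 29 lower, and moved the share up to T1 between -0.138 (without *rpa190-F1205H* replicate 1) and 1.32 (without WT replicate 1), with -0.025 without WT replicate 3, and the share of ends on C between -0.544 (without *rpa190-F1205H* replicate 1) and 0.206 (without *rpa190-F1205H* replicate 2).

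Position 6650 stood at -0.026 with edgeR, -0.019 with DESeq2, -1.51 on the spacer total and -0.40 on the ETS2 total, and between -0.017 and 0.073 with a library left out. On the spacer total, 6652 was at -1.13, 6666 at -1.32, 6680 at -0.36, 6704 at -0.53 and 6758 at -1.13. On the ETS2 total, 6652 was at -0.029, 6666 at -0.20 and 6758 at -0.14. Depth limits the stretch past T1, where a WT library held at most 484 reads over 119 positions.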
